A study of Mus musculus with 6 samples.

Results

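Genes of DNA replication and of mitosis were compared between metaplastic nodules that carried both transgenes (*K14-Cdx2::L2-IL-1β*) and nodules with *L2-IL-1β* alone. The members were 38 named genes of the 24647 with a symbol on the arrays: 11 of DNA replication, 4 regulators of entry into S phase and 23 of mitosis. They were found by their symbol, and where a gene had several probe sets the brightest over the arrays was taken, without regard to any difference between the genotypes. The *L2-IL-1β* transgene makes human IL-1β in squamous cells, those of esophagus and forestomach included, from a viral promoter, and the other genotype carries in addition Cdx2, an intestinal transcription factor, under the keratin 14 promoter, which is active in basal squamous cells. All animals, labelled C57/BL6, received deoxycholic acid, a secondary bile acid, at 0.2% in the drinking water for 12 months from 8 weeks of age, so no group was untreated. Total RNA of nodules at the squamo-columnar junction was hybridised on 6 arrays, 3 for each genotype (samples 52540, 52541 and 52542 for *K14-Cdx2::L2-IL-1β*; 52543, 52544 and 52545 for *L2-IL-1β*). The study calls them biological replicates, while no source used here gives the number of mice behind a sample. Values are log2 intensities, in which 1 unit is a 2-fold change, and a fold change is always *K14-Cdx2::L2-IL-1β* minus *L2-IL-1β*.

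A cell copies its genome in S phase and divides it in mitosis, and the genes for these tasks are switched on in waves. Before S phase the MCM proteins are loaded onto replication origins with the help of Cdc6, and together with Cdc45 they unwind the DNA. Pcna holds the polymerase on its template, and Rrm2 and Tyms make nucleotides. Cyclin D and cyclin E with their kinases release E2F, which activates the replication genes. Later, FOXM1 and the MuvB complex activate the genes of mitosis: cyclin B and Cdk1 start it, the spindle checkpoint (Bub1, Bub1b, Ttk) delays it, and Cdc20 and Ube2c act with the anaphase-promoting complex to end it. In a tissue such as this, the RNA of these genes comes from the proliferating cells, which can be epithelial, stromal or inflammatory. In a bulk sample, fewer cells of a type and less RNA per cell cannot be told apart.

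The promoters of the members carried the motifs of both waves. Upstream stretches of 150 bases, ending at the base before the annotated start, are printed for 9 genes from RefSeq's table of GRCm38.p6. They include Mcm2, the member with the lowest fold change, and Mcm5 and Mcm6, chosen for their E2F matches. Ccnb2, which has CCAAT alone within these 150 bases, and 5 mitosis genes chosen for a CHR match complete the set. Capitals mark exact matches on either strand to an E2F motif (GGCGGGAA, TTTCGCGC, TTTGGCGC or TTTCCCGC, the first and last of which share most of their bases), to the cell cycle homology region, CHR (TTTGAA or TTCGAA), where MuvB binds, or to CCAAT, the NF-Y motif. Mcm2 lies at chr6:88898781-88898930 (minus strand), Mcm5 at chr8:75109359-75109508 (plus strand), Mcm6 at chr1:128359706-128359855 (minus strand), Ccnb2 at chr9:70421555-70421704 (minus strand), Cdk1 at chr10:69352913-69353062 (minus strand), Cdc20 at chr4:118437344-118437493 (minus strand), Ube2c at chr2:164769779-164769928 (plus strand), Mki67 at chr7:135716380-135716529 (minus strand) and Top2a at chr11:99024190-99024339 (minus strand), and each is written 5′ to 3′ toward the gene.
Mcm2: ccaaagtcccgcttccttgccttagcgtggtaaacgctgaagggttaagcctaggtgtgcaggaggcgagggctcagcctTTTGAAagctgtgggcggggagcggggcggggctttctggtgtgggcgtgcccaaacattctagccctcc
Mcm5: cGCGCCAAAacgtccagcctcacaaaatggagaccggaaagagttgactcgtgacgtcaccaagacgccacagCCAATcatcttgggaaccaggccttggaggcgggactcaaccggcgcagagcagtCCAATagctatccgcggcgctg
Mcm6: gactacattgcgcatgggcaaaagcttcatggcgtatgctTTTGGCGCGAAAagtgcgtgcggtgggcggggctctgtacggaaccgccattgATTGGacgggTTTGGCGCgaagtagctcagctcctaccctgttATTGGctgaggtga
Ccnb2: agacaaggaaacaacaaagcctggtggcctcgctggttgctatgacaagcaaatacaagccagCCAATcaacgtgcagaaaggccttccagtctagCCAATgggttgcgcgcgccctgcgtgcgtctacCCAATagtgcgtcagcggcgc
Cdk1: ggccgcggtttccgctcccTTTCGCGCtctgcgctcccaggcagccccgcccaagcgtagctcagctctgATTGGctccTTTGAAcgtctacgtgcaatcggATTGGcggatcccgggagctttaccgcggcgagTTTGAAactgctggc
Cdc20: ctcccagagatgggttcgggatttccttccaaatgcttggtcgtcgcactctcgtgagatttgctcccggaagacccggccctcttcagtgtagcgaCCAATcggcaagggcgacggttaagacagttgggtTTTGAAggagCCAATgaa
Ube2c: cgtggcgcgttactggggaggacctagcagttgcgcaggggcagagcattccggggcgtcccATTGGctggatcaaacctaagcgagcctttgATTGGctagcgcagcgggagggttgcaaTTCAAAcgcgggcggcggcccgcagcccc
Mki67: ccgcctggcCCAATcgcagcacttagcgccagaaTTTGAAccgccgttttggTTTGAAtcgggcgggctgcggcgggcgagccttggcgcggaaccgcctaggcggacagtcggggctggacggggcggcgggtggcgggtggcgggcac
Top2a: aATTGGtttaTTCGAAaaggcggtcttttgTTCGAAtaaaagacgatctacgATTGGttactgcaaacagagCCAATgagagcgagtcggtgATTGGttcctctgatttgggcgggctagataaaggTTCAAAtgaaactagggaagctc

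Mcm6 showed 3 E2F matches, of which 2 overlapped, and no CHR match in this stretch, and Mcm5 showed 1 E2F and 2 CCAAT matches. Mcm2 showed 1 CHR match and neither of the other motifs here. Cdc20 and Ube2c showed 1 CHR and 2 CCAAT matches each, and Cdk1 was the mitosis gene that held all of these motifs. The printed genes are not typical in this: within 150 bases upstream, a CHR match was found in 6 of 18 mitosis members and 1 of 10 replication members, and an E2F match in 1 and 3. Of the 38 members, 30 were in the table of windows of 300 bases (250 before and 50 after the start), and Mcm7 had 2 windows. In the full windows a CHR match was found in 14 of 18 mitosis members (77.8%), Ccnb2 included. The same held for 3 of 10 replication members (30.0%, Mcm2, Mcm7 and Cdc45) and for 21.7% of all 27025 genes of the table. An E2F match was found in 5 of 10 replication members (Mcm3, Mcm5, Mcm6, Mcm7 and Cdc6), in 1 of 18 mitosis members (Cdk1) and in 1081 of the 27025 genes. CCAAT was present in 16 of 18 mitosis members and 8 of 10 replication members, against 41.1% of all genes. A match is a string of letters and not a measured site. Mcm4, Ccnd1, Ccne2, Ccna2, Foxm1, Aurkb, Kif20a and Tpx2 were not in the table.

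All 38 members were above the median intensity of the array on each of the 6 arrays. No member passed an adjusted p of 0.10 (limma, Benjamini-Hochberg over 34365 probe sets), where 2.14% of all named genes did in either direction and 1.44% as lower. An equal-variance test for every probe set also called 0. At an unadjusted p below 0.05, 10 members were lower and 1 was higher in *K14-Cdx2::L2-IL-1β*, against 8.07% and 7.06% of all named genes. The fold change was below 0 for 34 of 38 members and for 51.5% of all named genes. The median over the members was -0.16 (-10.3%), and the median over all named genes was -0.0047. The values of the genotypes did not overlap for 12 members that were lower (12.0% of all named genes) and for 1 that was higher (9.21%), and each of these 13 has an exact two-sided permutation p of 0.10, the smallest that 3 against 3 can give. The differences were small: every 95% interval of the 38 lay within a 2-fold change either way, as it did for 94.2% of all named genes, and the lowest bound was -0.61 (Mcm4) and the highest 0.45 (Ccnd1).

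**Figure D1:**
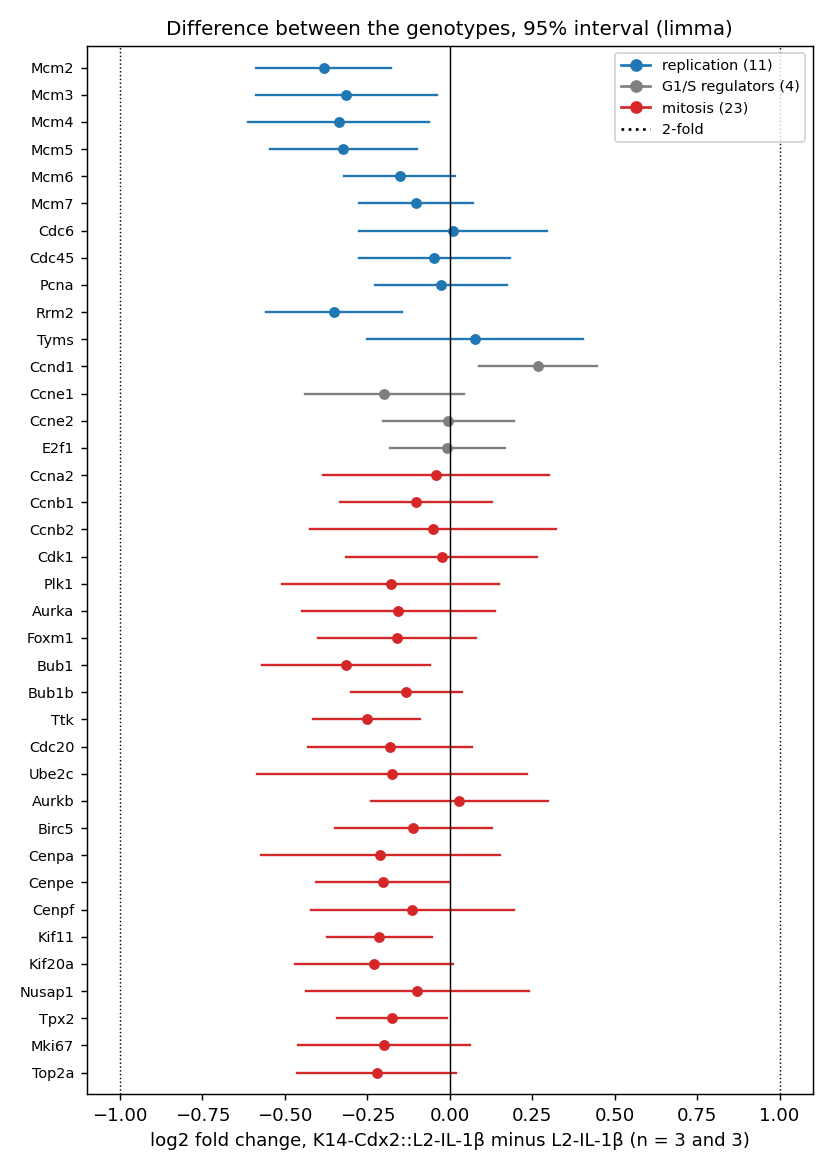
Fold change of each of the 38 members (point) with its 95% interval from limma (line), on the log2 scale, 3 samples for each genotype, coloured by class. Most points lie left of 0, between -0.38 (Mcm2) and 0.27 (Ccnd1), and no interval reaches the dotted 2-fold lines.

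The MCM helicase genes had 4 of the 5 lowest fold changes among the replication members. All 6 had a fold change below 0, with a median of -0.32 (-19.8%). Of these 6, 5 did not overlap between the genotypes, where 12.0% of all named genes were lower without overlap. Mcm2, a subunit of the hexamer (transcript at chr6:88833469-88848774 of NCBIM37, minus strand), had log2 intensities of 9.36, 9.18 and 9.36 in 52540, 52541 and 52542 and of 9.57, 9.77 and 9.71 in 52543, 52544 and 52545. Every *K14-Cdx2::L2-IL-1β* sample was below every *L2-IL-1β* sample, at means of 9.30 ± 0.10 and 9.68 ± 0.10 (SD, n = 3 each). The fold change was -0.38 with a standard error of 0.085 (-23.3%, limma adjusted p = 0.127), the lowest of the 38.

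Mcm5 gave 10.28, 10.18 and 10.23 with Cdx2 and 10.37, 10.67 and 10.62 without it (-0.32, SE 0.093, limma adjusted p = 0.208). Mcm3 gave 8.40, 8.42 and 8.47 against 8.50, 8.81 and 8.93 (-0.31, limma adjusted p = 0.303). In both, 52543 was the *L2-IL-1β* sample nearest to the other genotype. Mcm4 gave 10.19, 9.83 and 9.83 against 10.19, 10.29 and 10.38 (-0.34, limma adjusted p = 0.275). For Mcm4 the groups touched, since 52540 and 52543 differed only beyond the second decimal, and the other 2 *K14-Cdx2::L2-IL-1β* samples were lower. Mcm6 (-0.15) and Mcm7 (-0.10) differed less, and Mcm7 overlapped between the genotypes.

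Of the other replication genes, 1 of 5 stood apart. Rrm2, the small subunit of ribonucleotide reductase, gave 9.09, 9.22 and 9.29 in *K14-Cdx2::L2-IL-1β* and 9.45, 9.54 and 9.66 in *L2-IL-1β*. The groups did not overlap, and the fold change was -0.35 with a standard error of 0.086 (-21.6%, limma adjusted p = 0.155). A dimmer probe set of Rrm2 gave -0.07. Cdc6 (0.01), Cdc45 (-0.05) and Pcna (-0.03), the loader, the helicase partner and the sliding clamp, overlapped between the genotypes. The 95% interval of Pcna ran from -0.23 to 0.17, so a difference of that size was not resolved. Tyms, thymidylate synthase, was at 0.08 and was set by 1 sample: 52541 was at 9.45, and the other 5 were between 8.92 and 9.10.

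The 4 regulators of S phase entry lay on both sides of 0. Ccnd1, cyclin D1, was the member with the highest fold change and the only one of the 13 without overlap that was higher with Cdx2. Its log2 intensities were 11.16, 11.01 and 11.16 in *K14-Cdx2::L2-IL-1β* and 10.77, 10.90 and 10.86 in *L2-IL-1β*. All 3 values with Cdx2 lay above the other 3, by 0.27 on average (SE 0.075, 20.4%, limma adjusted p = 0.196). Ccne1, a cyclin E gene, was at -0.20 with overlap, while Ccne2, the other cyclin E gene, and E2f1, a factor that activates replication genes, were within 0.01 of no difference, with 95% intervals of -0.20 to 0.19 and -0.18 to 0.17.

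**Figure D2:**
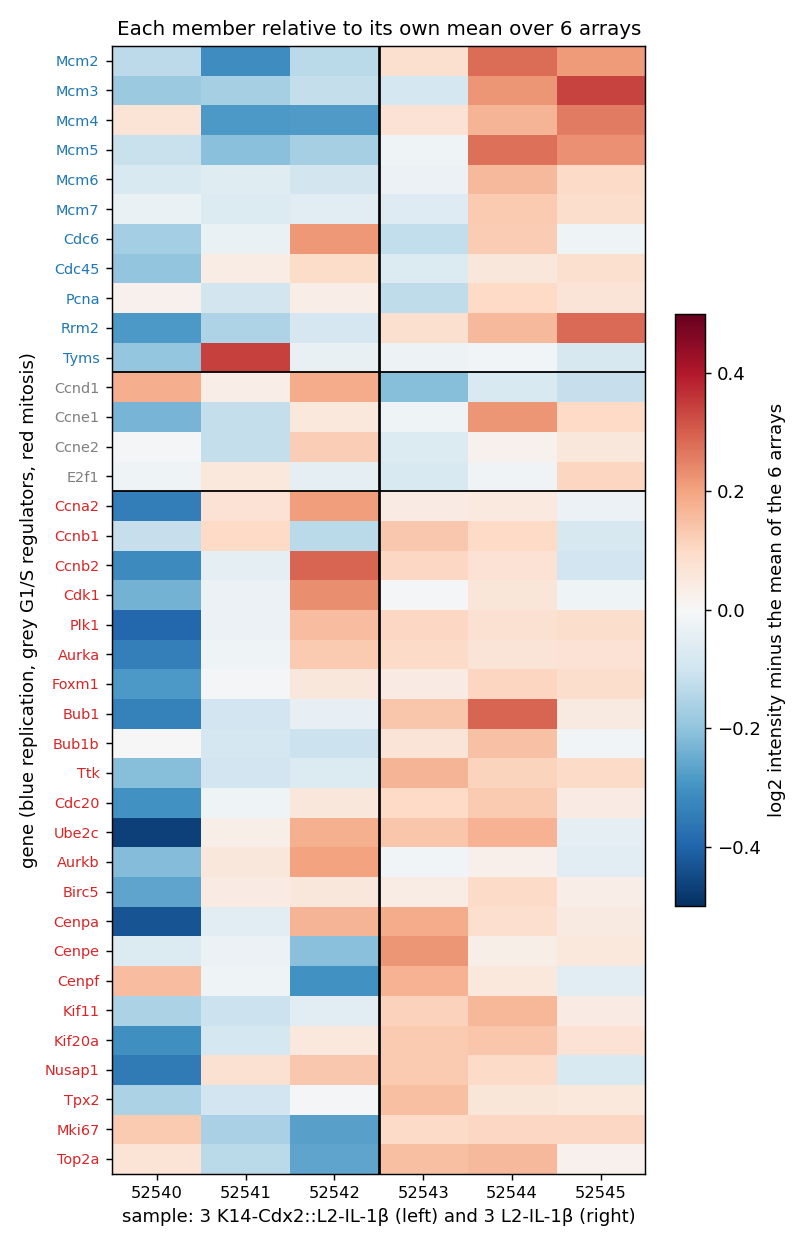
Log2 intensity of each member minus its own mean over the 6 arrays, 1 row for each gene and 1 column for each sample, with the 3 *K14-Cdx2::L2-IL-1β* samples to the left of the line. The top rows (Mcm2 to Mcm7) are low in all 3 left columns except Mcm4 in 52540, whereas most mitosis rows are low in 52540 and many are high in 52542.

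Among the mitosis members, 22 of 23 had a fold change below 0, with a median of -0.17 (-11.4%). Without overlap between the genotypes, 6 were lower (Bub1, Ttk, Cenpe, Kif11, Kif20a and Tpx2), against 12.0% of all named genes. The spindle checkpoint kinases were among these. Ttk, which recruits the checkpoint to unattached kinetochores, gave 7.78, 7.90 and 7.92 in *K14-Cdx2::L2-IL-1β* and 8.17, 8.10 and 8.09 in *L2-IL-1β* (-0.25, SE 0.067, limma adjusted p = 0.183). Bub1, a kinase at the kinetochore, gave 8.61, 8.86 and 8.91 against 9.09, 9.24 and 8.99 (-0.31, SE 0.11, limma adjusted p = 0.271). In both the lowest sample was 52540. Bub1b, which encodes the checkpoint protein BubR1, was at -0.13 with overlap.

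Kif11, the motor that separates the spindle poles, gave 9.77, 9.82 and 9.88 against 10.05, 10.09 and 9.97 (-0.21, SE 0.067, limma adjusted p = 0.238). Kif20a, a motor of cytokinesis (-0.23), Tpx2, an activator of Aurora A on the spindle (-0.17), and Cenpe, a kinetochore motor (-0.20), also had no overlap. Nusap1, a spindle protein (-0.10), overlapped.

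Of the cyclins and kinases that start mitosis, Cdk1, Ccnb2 and Ccna2 had close means and a wide spread in *K14-Cdx2::L2-IL-1β*. Their SDs were 0.24, 0.31 and 0.29 there and 0.043, 0.11 and 0.043 in *L2-IL-1β*. Cdk1 gave 10.23, 10.44 and 10.70 in *K14-Cdx2::L2-IL-1β* and 10.47, 10.53 and 10.45 in *L2-IL-1β*. The samples with Cdx2 therefore lay on both sides of the others, and the fold change was -0.02, with a 95% interval from -0.31 to 0.27. Ccnb2, a cyclin B gene, behaved alike, at 10.19, 10.46 and 10.80 against 10.61, 10.57 and 10.41 (-0.05). Ccna2, cyclin A2, gave 10.55, 10.97 and 11.11 against 10.94, 10.95 and 10.87 (-0.04). None of the 7 in this group, which also held Ccnb1 (-0.10), the kinases Plk1 (-0.18) and Aurka (-0.16) and the factor Foxm1 (-0.16), was free of overlap.

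The regulators of the anaphase-promoting complex were also lowest in 52540. Ube2c, its ubiquitin-conjugating enzyme, gave 9.96, 10.46 and 10.61 against 10.56, 10.60 and 10.38. Cdc20, its activator, gave 10.06, 10.34 and 10.42 against 10.47, 10.50 and 10.41. The fold changes were -0.17 and -0.18, and the groups overlapped. The centromere histone Cenpa (-0.21) and the chromosomal passenger gene Birc5 (-0.11) overlapped too, as did Cenpf, a kinetochore protein (-0.11). Aurkb, the passenger kinase, was the 1 mitosis member above 0 (0.03).

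Mki67, the gene of the proliferation marker Ki-67, and Top2a, the topoisomerase that untangles sister chromatids, were not lowest in 52540. Mki67 gave 10.94, 10.65 and 10.54 in *K14-Cdx2::L2-IL-1β* and 10.91 in each of the *L2-IL-1β* samples. Sample 52540 was thus at the *L2-IL-1β* level and the other 2 lay below it (-0.20, SE 0.11, limma adjusted p = 0.491). Top2a gave 10.13, 9.92 and 9.79 against 10.21, 10.22 and 10.08 (-0.22, limma adjusted p = 0.405), and its other 2, dimmer probe sets gave -0.18 and -0.13.

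Replication and mitosis members hardly differed in their distance between the genotypes, with medians of -0.15 and -0.17 (a difference of 0.02), but they ordered the samples differently. The median deviation of the mitosis members from their gene means was -0.26, -0.03 and 0.06 in 52540, 52541 and 52542 and 0.12, 0.10 and 0.04 in 52543, 52544 and 52545. That of the replication members was -0.13, -0.09 and -0.09, and then -0.03, 0.16 and 0.09. The mitosis genes thus set 52540 apart from the other 5, and the replication genes set 52543 apart from the other *L2-IL-1β* samples. These orders are a description of 6 arrays and were not tested.

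Sample 52540 was the lowest of all 6 in 17 of 23 mitosis members, in 5 of 11 replication members and in 1 of the 6 MCM genes, against 20.8% of all named genes. In the same 17 mitosis members 52542 was the highest of its genotype, whereas 4 replication members were lowest in 52540 and highest in 52542. The 4 mitosis members that were highest in 52540 within its genotype were Mki67, Top2a, Cenpf and Bub1b. Among the 18 mitosis members with a promoter window, the motifs did not separate them. Of 14 with both CHR and CCAAT in the window, 10 were lowest in 52540, and the other 4 were Mki67, Top2a, Cenpf and Bub1b. Only 4 lacked both, which leaves few to compare, and 2 of them were lowest in 52540. Ccna2, Foxm1, Aurkb, Kif20a and Tpx2 had no window and were all lowest in 52540.

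Within *L2-IL-1β*, sample 52543 was the lowest in 10 of 11 replication members, all 6 MCM genes included, and in 4 of 4 S phase regulators, but in 2 of 23 mitosis members, against 32.7% of all named genes. Sample 52545 was the lowest in 18 of 23 mitosis members and in 1 replication member, against 34.7% of all named genes. The median standard deviation between samples of a genotype was 0.19 for the mitosis members in *K14-Cdx2::L2-IL-1β* and 0.053 in *L2-IL-1β*, whereas it was 0.10 in both for the replication members. For all named genes it was 0.13 and 0.081.

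**Figure D3:**
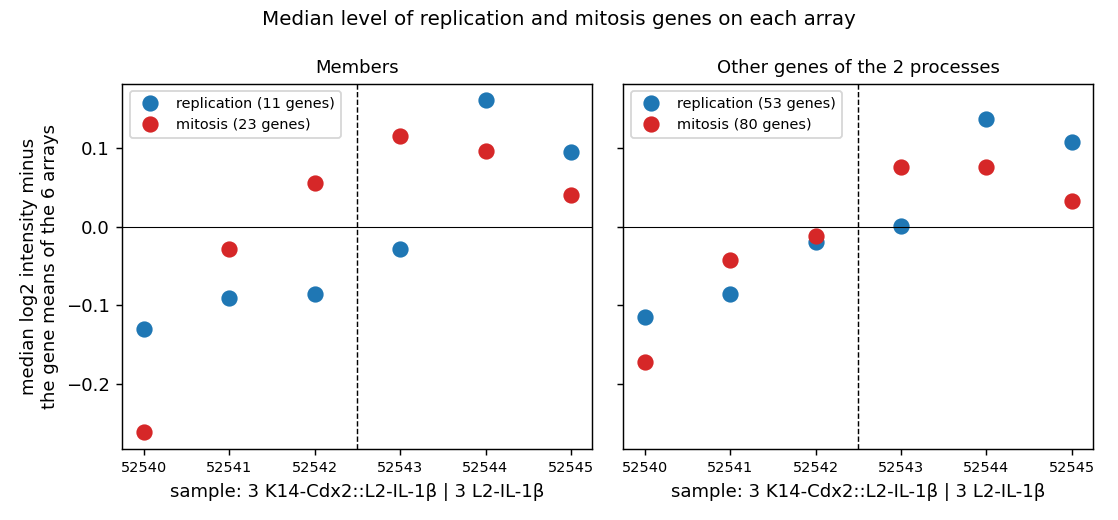
Median over genes of the log2 intensity minus the gene mean of the 6 arrays, for each sample, with members on the left and the other listed genes of the same processes on the right. Blue points (replication) are below red points (mitosis) in 52543 and above them in 52544 and 52545, and the lowest red point on both sides is 52540 (-0.26 for members, -0.17 for the other genes).

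Other measurements moved with these samples. Columnar epithelial markers of 52540 differed from its group: a list of 17 columnar markers had a median deviation from the gene means of -0.27 in 52540 and of 0.13 and 0.56 in 52541 and 52542, 16 of the 17 were lowest in 52540 within the genotype, and all 17 were above the array median on every array. In 52543, 52544 and 52545 the deviations were -0.17, 0.09 and -0.38, and 15 of the 17 were lowest in 52545 within *L2-IL-1β*, where 18 of 23 mitosis members were lowest too. Parietal and chief cell markers were at -1.28 in 52545, with 10 of 10 lowest there. Cdx2 itself was at 9.04 in 52540 and at 9.72 and 9.83 in the others, against 6.80 ± 0.06 (SD, n = 3) in *L2-IL-1β*. Over all probe sets 52540 correlated with the *L2-IL-1β* arrays at a mean r of 0.990 and with its own genotype at 0.988. For 52542 these means were 0.985 and 0.987, and for 52541 they were 0.989 and 0.991. Of the *K14-Cdx2::L2-IL-1β* samples, 52541 thus had the highest mean r with its own genotype. Smooth muscle markers, 10 of 10 above the array median on every array, had a median deviation of -0.79 in 52543 and of -0.30 and 0.14 in 52544 and 52545. Sample 52542 carried pancreatic acinar RNA, with a mean of 10.02 over 11 markers against 6.16 to 6.57 in the other 5. Their part in the order of the replication and mitosis genes was not tested.

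Sample 52540 was the lowest of all 6 in 17 of 23 mitosis members, so leaving it out had to raise the fold changes of those 17. Without it the median fold change over all 38 members went from -0.16 to -0.072, a shift beyond the spread between samples. The median of the mitosis members went from -0.17 to -0.07, a shift within their spread, in which 52540 itself is counted. That of the replication members stayed at -0.15. Mcm2 (-0.41, limma adjusted p = 0.096), Mcm4 (-0.45, limma adjusted p = 0.059) and Mki67 (-0.32, limma adjusted p = 0.085) then passed the threshold, 3 of 38 members against 3.49% of all named genes that were called lower. The mitosis members Cdk1 (0.09), Ccnb2 (0.10), Ccna2 (0.12), Ube2c (0.02) and Nusap1 (0.06) moved from below to above 0, as did the replication member Cdc45 (0.04). None of these genes passed the test with or without the sample. Without 52542, the sample with acinar markers, no member passed and the median of the members was -0.18.

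**Figure D4:**
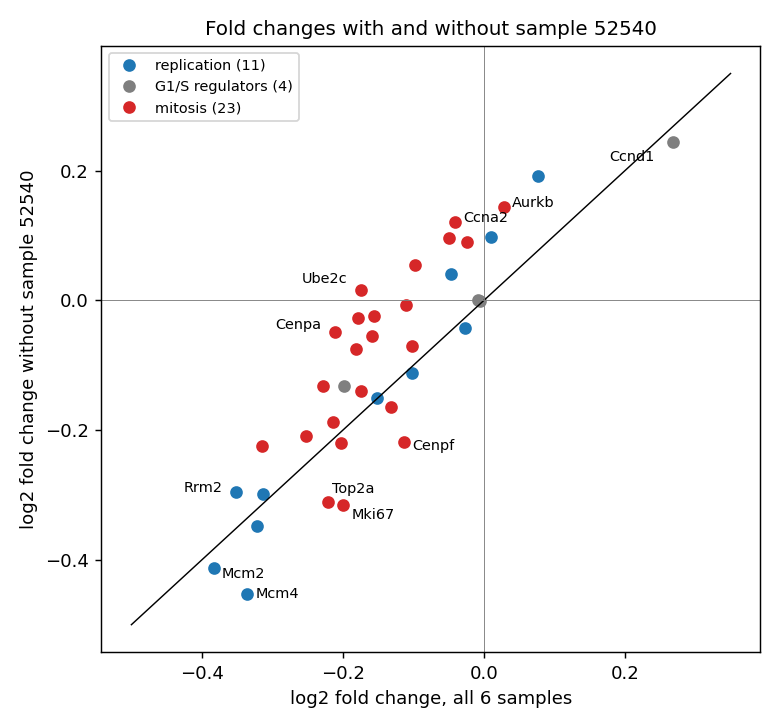
Log2 fold change of each member over all 6 samples (horizontal) and without sample 52540 (vertical), coloured by class, with the line of equal values. Most mitosis members lie above the line, nearer to 0 or above it, while Mcm2, Mcm4, Mki67, Top2a and Cenpf lie below it.

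Markers of other cell types differed between the genotypes as well. Of all named genes, 12.0% were lower and 9.21% higher without overlap, and 1.44% were called lower. Pan-leukocyte markers had a mean log2 intensity of 8.31 to 8.70 over 10 genes in *K14-Cdx2::L2-IL-1β* and of 9.01 to 9.13 in *L2-IL-1β*, with 10 of 10 fold changes below 0, 9 without overlap and 1 called (median -0.51). Neutrophil markers ranged from 7.92 to 8.26 and from 9.17 to 9.58, and 6 of 10 were called lower (median -1.41). T cell markers were at a median of -0.56, with 8 of 10 below 0, 2 above 0 and 2 called lower. Of these 10, 5 were above the array median on every array. Markers of neutrophil precursors, which unlike mature neutrophils divide, were at -0.05 with 2 of 8 above the array median on every array and 1 called lower. B cell markers were at a median of 0.03, with 1 of 10 called higher, 1 called lower and 4 without overlap. Only 2 of the 10 were above the array median on every array. Germinal centre B cell markers, which include dividing cells, were at -0.03. Squamous markers ranged from 11.49 to 11.66 and from 11.70 to 11.80 in their mean, and 3 of 16 were called lower (median -0.24). Other lists lay on the other side of 0 with no gene called: parietal and chief cell markers had a median of 1.20 (9 of 10 above 0, 5 without overlap), smooth muscle markers 0.55 (10 of 10 above 0, 4 without overlap) and columnar markers 0.22 (14 of 17 above 0, 0 without overlap). The part of these cells in the lower values of the replication and mitosis genes was not tested.

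Other genes of the same processes were read from lists of 179 genes, all of which were found. Of 53 other replication genes, 0 were called by limma, 49 had a fold change below 0, and the median was -0.17. At an unadjusted p below 0.05, 16 were lower and 0 higher, against 8.07% and 7.06% of all named genes. Rrm1, the large subunit that works with Rrm2, gave 10.64, 10.45 and 10.51 against 10.84, 10.91 and 10.94. Its groups did not overlap, and it lay just outside the threshold (-0.36, SE 0.074, limma adjusted p = 0.103). Pole, the catalytic subunit of polymerase epsilon, was at -0.45 (limma adjusted p = 0.134). The genes nearest to the threshold on the other side, the origin recognition genes Orc3 (0.15) and Orc4 (0.08), overlapped. As among the members, 52543 was the lowest *L2-IL-1β* sample in 42 of 53 of these genes and in 17 of 80 other mitosis genes.

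Of the 80 other mitosis genes, 1 was called lower, against 1.44% of all named genes, 68 were below 0 and the median was -0.14. The called gene was Mastl, the Greatwall kinase, which restrains the phosphatase that opposes Cdk1. It gave 8.62, 8.75 and 8.49 in *K14-Cdx2::L2-IL-1β* and 9.13, 9.07 and 9.34 in *L2-IL-1β*, and fell by 0.56 on the log2 scale (SE 0.10, limma adjusted p = 0.081). The call was lost in 5 of 6 fits that left out 1 sample, all but the one without 52540. Over the 6 fits, fold changes ran from -0.62 to -0.48 and limma adjusted p-values from 0.085 to 0.293. Of all named genes, 354 were called lower with all samples. Without 52541, 52542, 52543, 52544 and 52545 this number was 61, 324, 12, 39 and 29. Ckap2, a spindle protein, was at -0.37 (limma adjusted p = 0.117), and Gas2l3 and Troap, which bind the cytoskeleton, were at 0.28 each with overlap. Sample 52540 was the lowest of all 6 in 45 of the 80.

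The S phase regulators outside the members lay on both sides of 0. Cdk6, a kinase partner of the D cyclins, gave 9.51, 9.21 and 9.39 in *K14-Cdx2::L2-IL-1β* and 10.04, 10.06 and 10.33 in *L2-IL-1β*. It was lower in all 3 samples with Cdx2 (-0.77, SE 0.11, limma adjusted p = 0.052). It was the 1 gene called of 19, where 1.44% of all named genes were called lower. The call was lost without 52541, 52543, 52544 or 52545, 4 of 6 such fits. In these 4 fits 61, 12, 39 and 29 of all named genes were called lower, against 354 with all samples. Over the 6 fits, fold changes ran from -0.84 to -0.68 and limma adjusted p-values from 0.045 to 0.207. The D cyclins themselves lay on the other side. Ccnd3 gave 10.18, 10.37 and 10.30 against 9.86, 9.95 and 10.04 (0.33, limma adjusted p = 0.148), and Ccnd2 gave 11.54, 11.54 and 12.03 against 11.19, 11.41 and 11.01 (0.50, limma adjusted p = 0.261). With Ccnd1, all 3 D cyclin genes were thus higher without overlap, and none passed the test. Of the 19 genes of this list, 4 were higher and 4 lower without overlap, against 9.21% and 12.0% of all named genes. Rbl1, the p107 pocket protein, was at -0.26 (limma adjusted p = 0.209).

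No CDK inhibitor of 7 and no gene of 20 in the DNA damage and p53 list was called by limma. At an unadjusted p below 0.05, 1 CDK inhibitor was higher and 5 genes of the other list were lower. These shares were 7.06% and 8.07% over all named genes. Cdkn2b, which encodes p15 and inhibits Cdk4 and Cdk6, gave 9.31, 9.42 and 9.92 against 9.18, 9.17 and 8.98. It did not overlap between the genotypes (0.44, SE 0.17, limma adjusted p = 0.319), while Cdkn1c (0.15), Cdkn2c (-0.08) and Cdkn2d (-0.09), other inhibitors of cyclin-dependent kinases, did. Of the checkpoint genes, Chek2, a DNA damage kinase (-0.44, limma adjusted p = 0.204), was lower without overlap but did not pass. The p53 targets Ccng1 (0.13) and Gadd45a (0.23) did not pass either.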

How the data were processed

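Total RNA of 6 samples was hybridised on Affymetrix mouse gene ST arrays, whose version the labels and the methods give differently. The authors deposited log2 intensities per probe set, normalized between arrays. No source used here gives the summarisation or software. The submitters' processing notes name the build mm8, whereas the annotation's positions name NCBIM37. Columns of the authors' own comparisons (ratios, p-values, q-values, scores) were not used. Array medians were 6.62 to 6.65, and with 3 arrays for each genotype their number limits the precision. All 34365 probe sets were fitted with limma 3.58.1 in R 4.3.3 (lmFit, eBayes, 2.59 prior degrees of freedom), with genotype as the only term and Benjamini-Hochberg adjustment over all of them, and were called at an adjusted p below 0.10. The procedure was tested on simulated data with planted changes of 2-fold or more. These were larger than the difference of any member, so the simulation does not cover differences of that size. The significance analysis of microarrays that the methods name was not run. Named genes were all 38 members and, of each other list of the processes, up to 2 genes with the smallest unadjusted p in each direction. A gene that this rule names is not reported here. Members and lists were chosen with earlier results of these data known. The limma p-values set the difference between the genotypes against the spread between these samples, with a variance drawn in part from all probe sets. Scaling, filters, variance model, thresholds and left-out samples were varied, and array weights were added after seeing the data. Motifs were searched with Python 3.11.15.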

Additional observations from a re-analysis of the deposited data

How the results depend on the processing

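The lower values of the members kept their direction in the median under every setting tried. The count of calls changed when 52540 was left out and when array weights were used. Leaving out 1 sample at a time gave 0 to 3 members called lower and a median fold change of the members from -0.18 to -0.072. The latter, without 52540, was a shift beyond the spread between samples. The median of the replication members ranged from -0.20 to -0.11, that of the mitosis members from -0.21 to -0.07, and their difference from -0.08 to 0.06, so the sign of the difference was not stable. Array weights, chosen after seeing the data, gave 1 of the 38 members called lower (Mcm2, -0.43, limma adjusted p = 0.068). With these weights 682 of the 24647 named genes were called lower. Centring each array, a further quantile normalization, a filter on dim probe sets, probe sets naming 1 gene, another variance model, an equal-variance test and the other thresholds called no member. Of 496 values of single genes under an alternative, 488 stayed on their side of the threshold and within the spread, 4 passed it, 4 moved by more than the spread between samples and 0 reversed. The filter on dim probe sets, probe sets naming 1 gene, the other variance model and the equal-variance test cannot change a fold change. Their values could therefore differ in the call only. The sign was the same under all settings for 25 members and changed under some for 13, among them Cdk1, Ccna2 and Ube2c. The cause was not tested. Adjusted p-values ranged from 0.068 to 0.345 for Mcm2 and from 0.085 to 0.737 for Mki67. Over all named genes, 354 were called lower with all samples, 12 without 52543 and 861 without 52540. No paired analysis was possible because no number is shared between samples of the 2 genotypes. Dim probe sets did not limit the members, all of which lay above the array median.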
